A study of Danio rerio with 32 samples.

Results

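The effect of losing gys2 was compared between liver and skeletal muscle by testing, gene by gene, the difference between knockout and wild type in liver minus the same difference in muscle. All 32 libraries of the series entered the test, as 4 groups of 8: wild-type liver, gys2 knockout liver, wild-type muscle and gys2 knockout muscle. The fish were adult female zebrafish of the AB strain, 8 individuals of each genotype, with no treatment named. The sources used here do not give how the mutant allele was made, where its lesion lies or whether the line goes back to 1 founder. Polyadenylated RNA was counted at its 3′ ends by Lasy-Seq, in which every sample receives its own index during reverse transcription and the products are then pooled. The authors' table held 31658 genes, of which 14577 had at least 10 counts in 8 or more libraries and were tested.

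Glycogen synthase adds glucose units to a growing glycogen chain, and vertebrates carry a liver form encoded by gys2 and a form of muscle and other tissues encoded by gys1. Liver glycogen buffers blood glucose between meals, while muscle glycogen fuels the fibre that holds it. A gene whose response to the lost liver synthase differs between the tissues gives a non-zero interaction, in this account positive when knockout minus wild type is larger in liver than in muscle. Roles given for single genes are those of their mammalian or yeast counterparts unless a fish function is named.

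Libraries held between 1514099 and 15351773 counts. Wild-type livers ran from 1514099 to 2366219 and knockout livers from 2562717 to 15351773, with no overlap, whereas wild-type muscles (1664493 to 7264469) and knockout muscles (2373329 to 3620243) overlapped. The scaling factors of the TMM method, which set libraries on a common scale, were 0.827 to 1.5 in wild-type livers and 0.497 to 0.840 in knockout livers. The tissue labels held for the markers examined: the 10 hepatocyte markers summed to 26397 to 187507 CPM, the usual depth-scaled count unit, here after TMM scaling, in the livers and the 11 muscle markers to 43498 to 99163 CPM in the muscles. With 8 individuals of each genotype, livers and muscles came from the same fish, but the sources used here give no dates, no batches and no map from libraries to fish. Libraries were therefore treated as independent, and with the library number within genotype as a block in place of the fish, 8 genes were called for the interaction, 6 of them among the 30 below.

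Muscle libraries numbered 6 of both genotypes stood apart. The 99 genes that were private to liver took 6.84% of the counts of wild-type muscle 6 and 3.55% of knockout muscle 6, against 0.590% to 0.921% in the other 14 muscles. The yolk precursor vtg1 stood at 23912 and 12132 CPM in those libraries and at 2187 to 3266 CPM in the other 14 muscles. In those 14 muscles the liver-private genes still showed a median of 1.22% of their liver level, and the 100 muscle-private genes showed a median of 4.18% of their muscle level in the livers. Both sets were chosen for a low level in the other tissue, by ratios of 32 and 16, which limits these percentages. Their sizes therefore cannot be compared with each other. Carry-over of tissue and reads assigned to the wrong index of the pool cannot be told apart with these files. Many of the results below are given with and without these libraries. A value given once is from all libraries and can also differ without muscle 6.

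**Figure D1:**
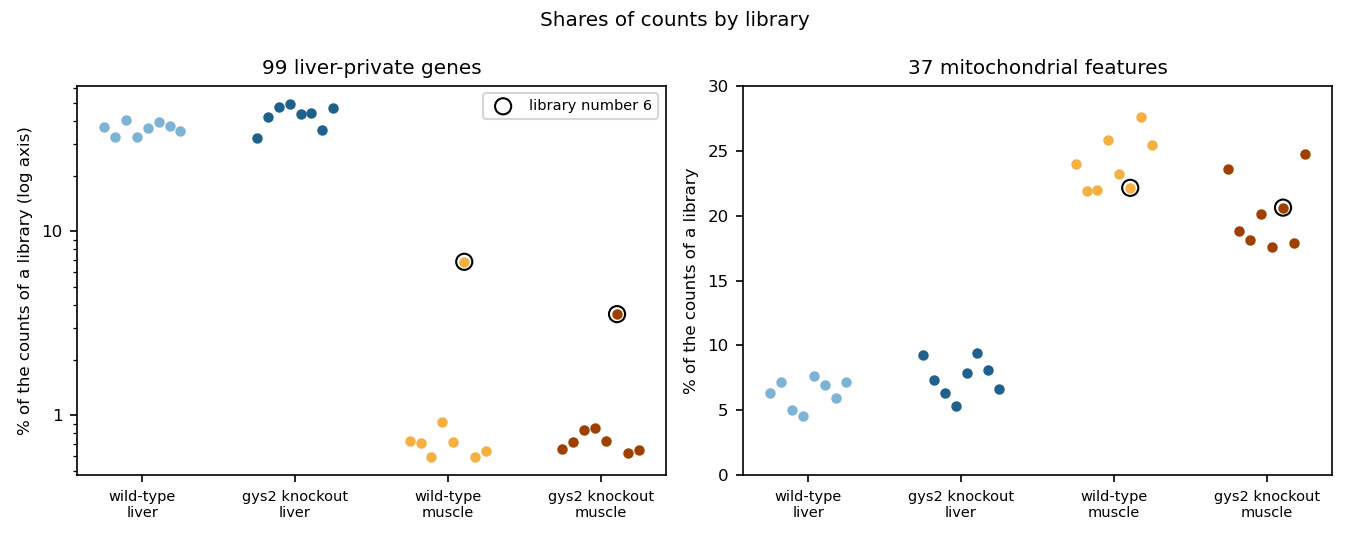
Share of each library's counts taken by 99 liver-private genes (left, % on a log axis) and by 37 mitochondrial features (right, %), 1 point per library in 4 groups of 8, with both muscle libraries numbered 6 circled. The circled libraries lie at 6.84% and 3.55% on the left, above the 0.590% to 0.921% of the other muscles, and inside their groups on the right.

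The targeted gene was lower in knockout than in wild-type liver, and in muscle it was barely detected in either genotype. Transcripts of gys2 ranged from 2.44 to 23.4 CPM (median 12.9) in wild-type liver and from 0.252 to 2.98 CPM (median 1.14) in knockout liver. In muscle they ranged from 0 to 2.72 CPM (median 0.348) in wild type and from 0.237 to 2.45 CPM (median 0.671) in knockout. All 8 knockout livers lay below the wild-type median, with an overlap of the extreme libraries, and both muscle groups sat near the floor at 0 to 15 counts per library. The difference of differences in mean log2(CPM + 0.5) was -3.13, made up of -2.61 in liver and 0.53 in muscle (two-sided exact permutation of genotype within each tissue, p = 0.000360, lower in 8 of 8 knockout livers). That permutation takes away the genotype effect in both tissues, so an effect in liver alone can make its p small. The liver part alone gave p = 0.000466 by exact permutation. In the fit over all genes the interaction of gys2 was -3.39 ± 0.85, and its edgeR adjusted p of 0.0667 did not pass 0.05. Because the lesion may lie outside the counted 3′ end, these values show how much transcript there was and not how the gene was changed.

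Levels of gys1, the form used by muscle, were 43.8 to 65 CPM (median 51.9) in wild-type liver and 35.5 to 49.6 CPM (median 41.4) in knockout liver. In wild-type muscle they were 114 to 195 CPM (median 158), and in knockout muscle 103 to 167 CPM (median 128). Medians were lower in the knockout in both tissues and all groups overlapped within their tissue. Below the wild-type median lay 8 of 8 knockout livers and 7 of 8 knockout muscles. By exact permutation the liver difference alone gave p = 0.0042 and the muscle difference alone p = 0.117. In the fit over all genes the liver change of gys1 did not pass (edgeR adjusted p = 0.229). The difference of differences for gys1 was -0.11 (exact permutation p = 0.542), from -0.32 in liver and -0.21 in muscle. A difference between tissues was therefore not detectable for gys1 at this depth, with an edgeR interaction of -0.10 ± 0.22.

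Of the 14577 genes, 30 passed for the interaction (edgeR quasi-likelihood test, Benjamini-Hochberg adjusted p under 0.05), which is 0.206%. In 27 of them, 0.185% of all tested, knockout minus wild type was larger in liver than in muscle, and in 3, 0.0206%, it was smaller. Before adjustment 2568 genes had p under 0.05, against 728.85 that chance alone would give in both directions together. Of the 2568, 1734 (11.9% of all tested) lay in the first direction and 834 (5.72%) in the second. Over all genes tested the median interaction was 0.11 on the log2 scale, the median liver change 0.10 and the median muscle change 0.01, so, set against the median gene, a positive interaction below is smaller by 0.11 and a negative one larger in size by 0.11. Calls were also mostly positive with DESeq2 size factors (15 positive, 3 negative), TMM within each tissue (12 and 3) and cyclic loess (9 and 1). With library totals in place of TMM the split was the reverse: the median interaction was -0.71, and 25 genes passed in the first direction and 3317 in the second.

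In the same fit and over the same genes, 487 genes (3.34%) were called higher and 61 (0.418%) lower in knockout liver. No gene was called in knockout muscle (0%) by edgeR, where 481 had an unadjusted p under 0.05. DESeq2 and limma-voom called 0 there as well, with 602 and 734 at an unadjusted p under 0.05. With library totals 50 were called higher and 4553 lower in knockout liver, and with libraries thinned to the total of the shallowest, a wild-type liver, 15 and 1. TMM within each tissue gave 222 and 71, and livers fitted alone, which changes the scaling, the dispersion and the genes tested together, gave 7 of 11118 genes. The liver calls moved with single muscle libraries too: 122 and 39 without knockout muscle 3, and 507 and 68 without wild-type muscle 7. These bulk values cannot tell fewer cells of a type from less RNA per cell.

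Among the 27 genes with a positive interaction, knockout over wild type ranged from 0.68 to 2.44 in liver and from -1.03 to 0.06 in muscle on the log2 scale. In 29 of the 30 called genes the changes in the tissues had opposite signs, as in 8785 of all 14577, and a choice by the difference itself favours such genes. The liver change was the larger in size in 29 of 30. Of all 14577 genes, 3073 had an unadjusted p under 0.05 in liver and 481 in muscle. In 26 of the 30, all 8 knockout livers lay on the same side of the wild-type median, and in 6 the liver groups did not overlap. In no called gene were the muscle groups apart. The shares of all genes tested with such sizes, sides and overlaps were not counted, so these counts describe only the called genes. An unadjusted muscle p under 0.05 was found in 11 of the 30, against 481 of all 14577. The interaction contains the muscle change, so a choice by it favours small muscle p as well. All 30 interactions were at least 2-fold, and 20 of the genes had at least 10 counts in each of the 32 libraries.

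**Figure D2:**
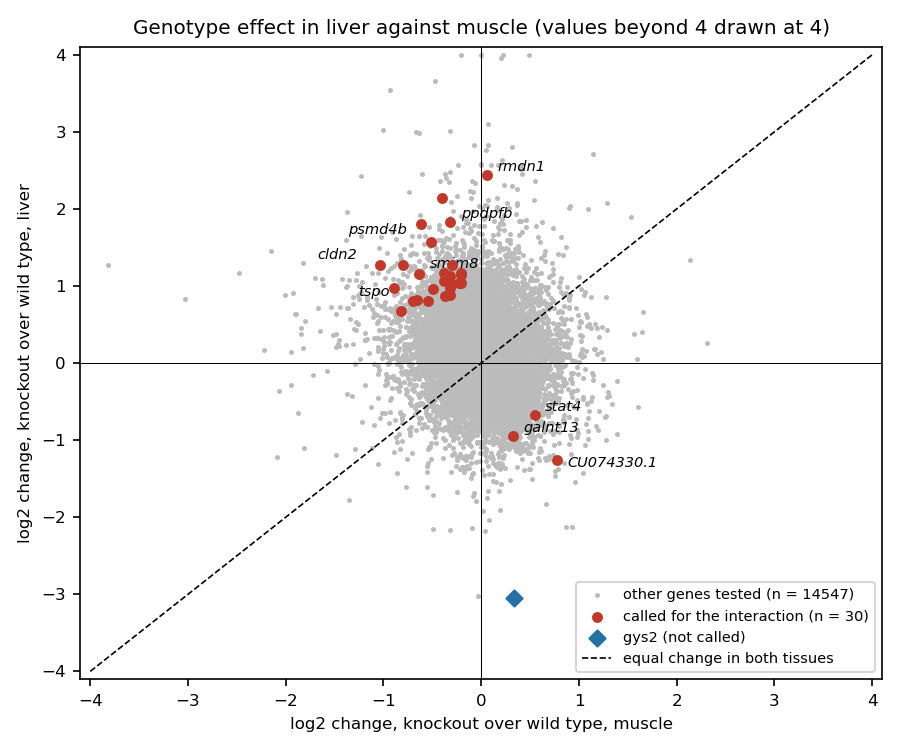
Log2 change of knockout over wild type in liver (vertical axis) against muscle (horizontal axis) for 14577 genes, with the 30 called for the interaction in red, gys2 as a diamond and a dashed line where the changes are equal. Called genes lie far from the dashed line, 27 above it and 3 below it, and in 29 of the 30 the liver change is the larger in size. The share of all genes with a larger liver change was not counted.

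The 2 genes with the smallest p were smim8, which encodes a small integral membrane protein, and ppdpfb, named for a factor of pancreatic progenitor differentiation and proliferation. In smim8 the wild-type livers ranged from 3.57 to 18.7 CPM (median 9.76), and the knockout livers from 15.5 to 33.4 CPM (median 21.9). Wild-type muscles ranged from 39.5 to 77.3 CPM (median 54.4) and knockout muscles from 21.8 to 58.1 CPM (median 34.7). Every knockout liver (8 of 8) exceeded the wild-type median and 7 of 8 knockout muscles lay below the wild-type muscle median, with overlap in both tissues. Its log2 change was 1.15 in liver and -0.63 in muscle, an interaction of 1.79 ± 0.31 (edgeR adjusted p = 0.00812).

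Levels of ppdpfb ran from 65.1 to 282 CPM (median 152) in wild-type and from 181 to 956 CPM (median 464) in knockout liver. They ran from 45.9 to 83.2 CPM (median 56.7) in wild-type and from 29.6 to 66.1 CPM (median 45.3) in knockout muscle. Here the difference came mainly from liver, where 8 of 8 knockout libraries exceeded the wild-type median, while the muscle groups largely overlapped. The interaction was 2.15 ± 0.38 (edgeR adjusted p = 0.00812), from 1.83 in liver and -0.32 in muscle. It stayed called in all 16 alternatives that could be computed for it and in all 32 fits that left out 1 library, and smim8 in 15 of 16 and 32 of 32. The other called genes named by rule were less stable, from 30 of those 32 fits for tspo to 11 for eif3c. Among them were mt-nd3 in 26, pdha1a in 21, psmd4b and sumo2b in 18, cldn2 in 15, galnt13 in 13 and stat4 in 12.

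Several of the called genes act in mitochondria. The third smallest p belonged to tspo, the translocator protein of the outer mitochondrial membrane. Its levels were 13.9 to 26.7 CPM (median 15.6) in wild-type liver and 23.4 to 34.9 CPM (median 30.2) in knockout liver. In muscle they were 25.4 to 68.1 CPM (median 35.6) in wild type and 14.7 to 32.7 CPM (median 24) in knockout. All 8 knockout livers lay above and all 8 knockout muscles below the wild-type median of their tissue, with overlap of the extreme libraries in both tissues. Its log2 changes of 0.81 in liver and -0.70 in muscle gave an interaction of 1.51 ± 0.28 (edgeR adjusted p = 0.0139).

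Of the subunits that the mitochondrial genome itself encodes, mt-nd3 and mt-nd6 of complex I and mt-co1 of complex IV were called. The levels of mt-nd3 ran from 986 to 2827 CPM (median 1414) in wild-type liver and from 2356 to 4045 CPM (median 3085) in knockout liver. Muscle levels of mt-nd3 ran from 4842 to 9293 CPM (median 6319) in wild type and from 3289 to 7143 CPM (median 4413) in knockout. In liver 8 of 8 knockout values exceeded the wild-type median and 7 of 8 knockout muscles lay below theirs. The interaction of mt-nd3 was 1.46 ± 0.28 (edgeR adjusted p = 0.0184), that of mt-nd6 1.33 ± 0.29 (edgeR adjusted p = 0.0395) and that of mt-co1 1.24 ± 0.28 (edgeR adjusted p = 0.0397). Another 3 called features are listed on the mitochondrial record without a gene symbol, with interactions of 1.44, 2.54 and 1.29. The sources used here do not say whether counting used strand, so reads of mt-nd6 and of transcripts from the other strand cannot be told apart.

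In liver the share of all counts that fell on the 37 mitochondrial features was 4.59% to 7.63% in wild type and 5.33% to 9.40% in knockout. In muscle it was 21.9% to 27.6% in wild type and 17.6% to 24.8% in knockout. The groups overlapped in both tissues. With the mitochondrial features removed before library sizes were taken, an alternative chosen after seeing the data, 3 of 14540 genes were called. The called mitochondrial features were themselves taken out by this, and leaving out knockout muscle 3 alone also gave 3 calls. The part of these features in the other called genes, through scaling or otherwise, was not tested beyond that count.

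Pyruvate dehydrogenase, which carries carbon from glycolysis into the citric acid cycle, was represented by pdha1a, its catalytic alpha subunit. Levels of pdha1a ran from 14.5 to 32.5 CPM (median 22.7) in wild-type and from 28.9 to 89.7 CPM (median 42) in knockout liver. They ran from 124 to 198 CPM (median 164) in wild-type and from 82 to 185 CPM (median 121) in knockout muscle. Each of the 8 knockout livers exceeded the wild-type median and 7 of 8 knockout muscles lay below theirs. Its interaction was 1.44 ± 0.29 (edgeR adjusted p = 0.0292), from 1.06 in liver and -0.38 in muscle.

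Protein turnover was represented by psmd4b, a ubiquitin receptor of the regulatory particle of the proteasome, PSMA2, an alpha subunit of its core, and sumo2b, a ubiquitin-like modifier. In psmd4b the wild-type livers ran from 3.98 to 15.8 CPM (median 8.84) and the knockout livers from 8.86 to 64.5 CPM (median 19.1). Wild-type muscles ran from 16.7 to 45.8 CPM (median 28.3) and knockout muscles from 15.4 to 27.6 CPM (median 22). All 8 knockout livers lay above and all 8 knockout muscles below the wild-type median, with overlapping groups. The interaction of psmd4b was 2.08 ± 0.43 (edgeR adjusted p = 0.031), that of PSMA2 1.38 ± 0.28 (edgeR adjusted p = 0.031) and that of sumo2b 1.25 ± 0.26 (edgeR adjusted p = 0.031). The liver groups of sumo2b did not overlap, at 11.8 to 29.5 CPM (median 24.6) in wild type and 35.3 to 57.2 CPM (median 49.2) in knockout.

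**Figure D3:**
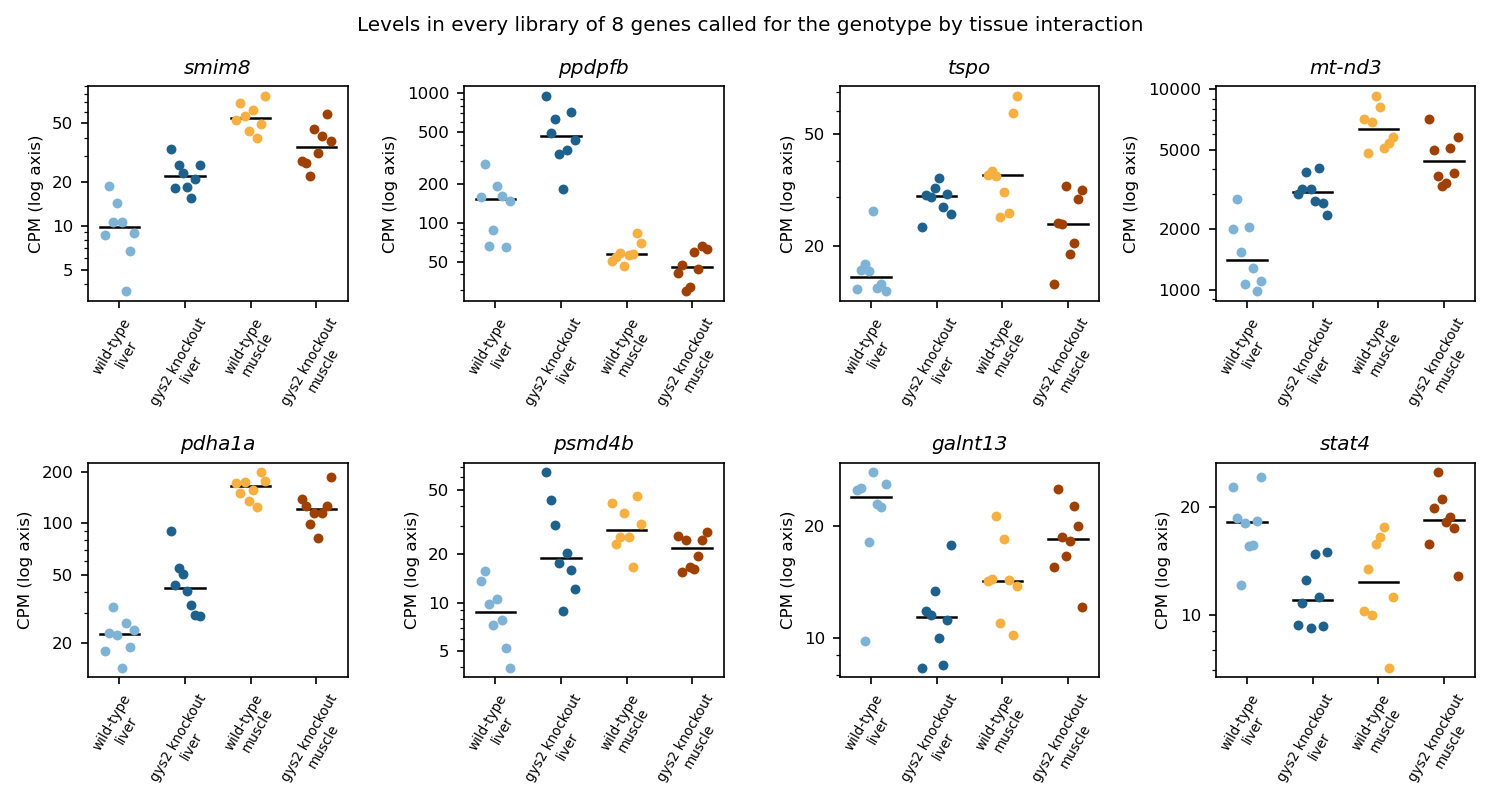
CPM (log axis) in every library for 8 genes called for the interaction, in 4 groups of 8 libraries, with a bar at each group's median. In smim8, ppdpfb, tspo, mt-nd3, pdha1a and psmd4b the knockout medians are higher in liver and lower in muscle, and in galnt13 and stat4 the reverse holds.

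Genes of transcription, membrane traffic and cell contacts followed. They were rtf1, a factor of transcription elongation, at 1.35 ± 0.29 (edgeR adjusted p = 0.0381), arl8, a small GTPase of lysosomes, at 1.54 ± 0.33 (edgeR adjusted p = 0.0383), and rab1ba, a GTPase of traffic from the endoplasmic reticulum to the Golgi, at 1.44 ± 0.31 (edgeR adjusted p = 0.0395). The liver groups of arl8 did not overlap, at 3.52 to 10.00 CPM (median 4.88) in wild type and 11.2 to 15.5 CPM (median 12.1) in knockout. TMEM19, which encodes a transmembrane protein and is written in capitals in the table, had an interaction of 1.48 ± 0.30 (edgeR adjusted p = 0.031). Its muscle change of -0.66 was nearly as large in size as its liver change of 0.82.

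The tight-junction gene cldn2 had the largest interaction among the genes named by rule and called, at 2.30 ± 0.51 (edgeR adjusted p = 0.0397). Its wild-type livers ran from 12.9 to 27.8 CPM (median 16.4) and its knockout livers from 28.2 to 58.2 CPM (median 42.9), without overlap. In muscle cldn2 stood at 0.388 to 2.23 CPM (median 1.5) in wild type and 0 to 1.13 CPM (median 0.686) in knockout. No knockout muscle and 2 wild-type muscles held 10 counts of it, so that the muscle side of this interaction rests on a few reads.

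The 3 genes with a negative interaction were galnt13, an enzyme that starts O-linked glycosylation, stat4, a transcription factor of cytokine signalling, and the clone-named CU074330.1. Levels of galnt13 ran from 9.83 to 27.8 CPM (median 23.9) in wild-type liver and from 8.35 to 17.8 CPM (median 11.4) in knockout liver. In muscle galnt13 ran from 10.2 to 21.2 CPM (median 14.3) in wild type and from 12.1 to 25.1 CPM (median 18.4) in knockout. All 8 knockout livers lay below the wild-type median and 7 of 8 knockout muscles above it, an interaction of -1.27 ± 0.29 (edgeR adjusted p = 0.0397). For stat4 the livers ran from 12.1 to 24.4 CPM (median 18.2) in wild type and from 9.2 to 15 CPM (median 11) in knockout. Its muscles ran from 7.12 to 17.6 CPM (median 12.3) in wild type and from 12.9 to 25.1 CPM (median 18.5) in knockout. Here all 8 knockout livers were below and all 8 knockout muscles above the wild-type median, with an interaction of -1.22 ± 0.28 (edgeR adjusted p = 0.0397). That of CU074330.1 was -2.04 ± 0.46 (edgeR adjusted p = 0.0397). Its liver groups came close without overlap, at 4.45 to 9.87 CPM (median 5.26) in wild type and 1.24 to 4.14 CPM (median 2.83) in knockout. It rests on few reads: 5 of 8 libraries held 10 counts of it in each liver group and in wild-type muscle.

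The other called genes with a symbol were chosen for mention after their values were seen. They were rmdn1, a regulator of microtubule dynamics (interaction 2.37 ± 0.51), srsf5a, a splicing factor (1.35 ± 0.30), kpnb3, a nuclear import receptor (1.2 ± 0.28), and eif3c, a subunit of a translation initiation factor (1.27 ± 0.30). Metabolic members were adi1 of methionine salvage (1.88 ± 0.43), adka, an adenosine kinase (1.58 ± 0.37), and slc11a2, an iron transporter (1.5 ± 0.34). The remaining genes were keap1a, which senses oxidants and electrophiles (2.42 ± 0.57), and zgc:92907 (2.07 ± 0.46). Both rest on few reads: 1 of 8 wild-type livers held 10 counts of each, and 2 knockout muscles held 10 counts of keap1a. In rmdn1 the liver groups did not overlap, at 2.86 to 25.8 CPM (median 9.92) in wild type and 36.1 to 121 CPM (median 57.4) in knockout, and its muscle change was 0.06.

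Without both muscle libraries numbered 6, 14266 genes were tested and 6 passed (0.0421%), all with a positive interaction. Without wild-type muscle 6 alone, the library with the larger liver-private share, 29 genes were called, 27 of them among the 30, and without knockout muscle 6 alone 5 were called. Of the 30 genes, 5 remained called: smim8 at 1.82 (edgeR adjusted p = 0.0212), ppdpfb at 2.10 (edgeR adjusted p = 0.0265), tspo at 1.52 (edgeR adjusted p = 0.0265), mt-nd3 at 1.46 (edgeR adjusted p = 0.0364) and psmd4b at 2.09 (edgeR adjusted p = 0.0499). The gene gained was lcn15, a lipocalin, at 2.66 without those libraries (edgeR adjusted p = 0.0306) and 2.15 with them (edgeR adjusted p = 0.103). The sizes of the lost calls moved little: pdha1a stood at 1.41 (edgeR adjusted p = 0.0514), sumo2b at 1.18 (edgeR adjusted p = 0.0641), cldn2 at 2.24 (edgeR adjusted p = 0.076) and stat4 at -1.36 (edgeR adjusted p = 0.0514). The median interaction over all genes was 0.05, and gys2 stood at -4.04 (edgeR adjusted p = 0.0514).

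The number of calls moved with other single libraries too. Leaving out 1 library at a time gave 2 to 68 calls, with 2 without wild-type muscle 8 or knockout muscle 5 and 68 without wild-type liver 5. When each library was thinned to the total of the shallowest, 2 of 11013 genes were called, and 10 such draws gave 0 to 4. DESeq2 called 153 genes, 112 positive and 41 negative, including 28 of the 30.

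**Figure D4:**
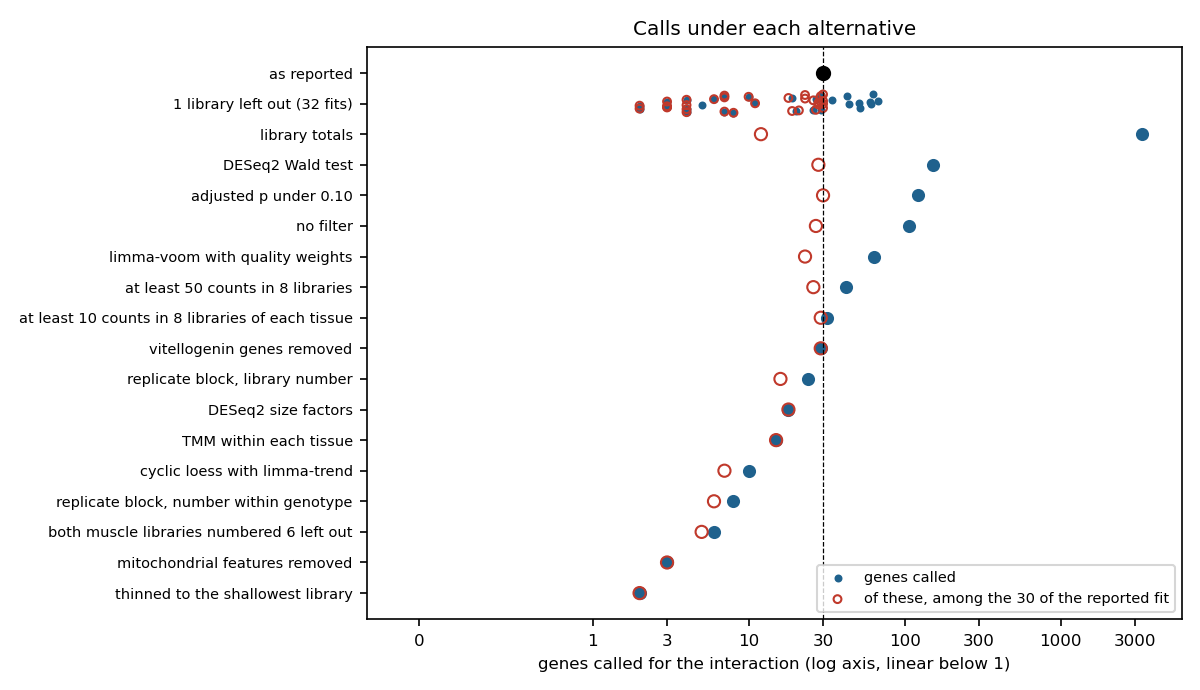
Number of genes called for the interaction (log axis, linear below 1) under each alternative, with the reported fit in black at 30, all calls as filled points and those among the 30 as red rings. Leaving out 1 library gave 2 to 68 calls, library totals 3342 and thinned counts 2.

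Gene families were described by their counts and medians beside those of all genes tested, where the median interaction was 0.11, 55.9% of genes had a positive interaction and 11.9% had a positive interaction at an unadjusted p under 0.05. No family was given a test of its own. Counts of positive members are those of the TMM fit. With library totals in place of TMM the median of all genes was -0.71, and of 36 families with a positive median 23 had a median below 0, the lowest at -0.65. They were glycogen synthesis, glycolysis, the pentose phosphate pathway, glucose transport, pyruvate dehydrogenase and the citric acid cycle, the nuclear respiratory chain, mitochondrial carriers, fatty acid oxidation, bile acids, cytosolic and mitochondrial ribosomal proteins, translation factors, heat shock, endoplasmic reticulum, lysosome, immediate early and P450 genes, hepatocyte factors, the insulin and fasting response, creatine kinases, and erythrocyte, macrophage and oocyte genes.

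Mitochondrial families were mostly positive. Of the 83 nuclear-encoded subunits of the respiratory chain, 82 had a positive interaction and 51 did so at an unadjusted p under 0.05, with none called and a median of 0.69. The liver median was 0.63, with 15 called higher there, and the muscle median was -0.07. Among them ndufs1, an iron-sulphur subunit of complex I, had 1.27 ± 0.31 (edgeR adjusted p = 0.0643) and cox5ab of complex IV 1.04 ± 0.30 (edgeR adjusted p = 0.111). Of the 13 subunits encoded by the mitochondrial genome, 11 were positive and 3 called, with a median of 0.93 from 0.66 in liver and -0.29 in muscle. That median was 0.12 under cyclic loess scaling and 0.19 with library totals. Pyruvate dehydrogenase and the citric acid cycle had 28 of 31 members positive, 17 of them at an unadjusted p under 0.05, and a median of 0.69. Beside pdha1a, the only call, dldh, the dihydrolipoamide dehydrogenase shared by several complexes, stood at 0.98 ± 0.28 (edgeR adjusted p = 0.108).

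Fatty acid oxidation had 29 of 30 members positive, 12 at an unadjusted p under 0.05, none called, and a median of 0.63. Its muscle median was -0.16, with 25 of 30 members below 0. Examples were decr2, a peroxisomal dienoyl-CoA reductase, at 2.39 ± 0.61 (edgeR adjusted p = 0.0795), and acaa1, a peroxisomal thiolase, at 1.5 ± 0.44 (edgeR adjusted p = 0.111). Mitochondrial carriers had 30 of 41 members positive and a median of 0.47, or 0.28 without knockout liver 1. Mitochondrial ribosomal proteins had 67 of 74 positive and a median of 0.62, with mrpl18 at 1.28 ± 0.37 (edgeR adjusted p = 0.111) and mrpl17 at 1.29 ± 0.39 (edgeR adjusted p = 0.111). Without muscle 6 the medians were 0.65 for the nuclear respiratory chain, 0.94 for the mitochondrially encoded subunits, 0.61 for the citric acid cycle and 0.59 for fatty acid oxidation.

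Families of protein destruction, folding and synthesis were also mostly positive. Of 44 proteasome subunits, which cut up ubiquitin-tagged proteins, 40 had a positive interaction and 30 did so at an unadjusted p under 0.05, with a median of 1.13. The proteasome median was 1.00 in liver, where 17 members were called higher, and -0.14 in muscle. Of these psmd4b alone was called, since PSMA2 is listed in capitals and was not gathered by the pattern, and psmb6, a subunit of the catalytic core, stood at 1.51 ± 0.38 (edgeR adjusted p = 0.0712). All 8 subunits of the chaperonin TRiC, which folds actin and tubulin, were positive at an unadjusted p under 0.05 and called higher in liver, with a median of 0.97. Their muscle changes were below 0 in 8 of 8, and cct6a stood at 0.99 ± 0.24 (edgeR adjusted p = 0.0654) and tcp1 at 1.05 ± 0.30 (edgeR adjusted p = 0.107).

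Cytosolic ribosomal proteins had 81 of 81 members positive, 44 at an unadjusted p under 0.05, none called, and a median of 0.56, which turned negative also under cyclic loess scaling. Changes in muscle were above 0 in 67 of 81, at a median of 0.06. Examples were rpl7a at 0.87 ± 0.27 (edgeR adjusted p = 0.118) and rps27.2 at 1.00 ± 0.32 (edgeR adjusted p = 0.128), whose liver groups did not overlap. Translation factors had 62 of 75 positive and a median of 0.63, with eif3c called and eif4a1b, an RNA helicase of initiation, at 0.92 ± 0.28 (edgeR adjusted p = 0.112). Without muscle 6, 11 in place of 44 ribosomal proteins had an unadjusted p under 0.05, at a median of 0.47.

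Chaperones of heat shock had 20 of 35 members positive, a share near that of all genes, and a median of 0.37, or 0.22 without knockout muscle 6, with the small chaperone hspb1 at 1.12 ± 0.30 (edgeR adjusted p = 0.0889) and hspa8 at 0.88 ± 0.26 (edgeR adjusted p = 0.111). Folding genes of the endoplasmic reticulum had 25 of 33 positive and a median of 0.44, or 0.30 without muscle 6. Its disulphide isomerases pdia3 and p4hb stood at 1.35 ± 0.33 (edgeR adjusted p = 0.0643) and 1.15 ± 0.31 (edgeR adjusted p = 0.0897). The liver groups of pdia3 did not overlap, at 76.8 to 279 CPM (median 175) in wild type and 284 to 460.0 CPM (median 369.7) in knockout. Glutathione and antioxidant genes had 36 of 40 positive and a median of 0.77, with the glutathione transferase gstr at 0.99 ± 0.31 (edgeR adjusted p = 0.121) and catalase, cat, at 1.03 ± 0.33 (edgeR adjusted p = 0.13). Genes of lysosomes and autophagy had 39 of 50 positive and a median of 0.48.

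**Figure D5:**
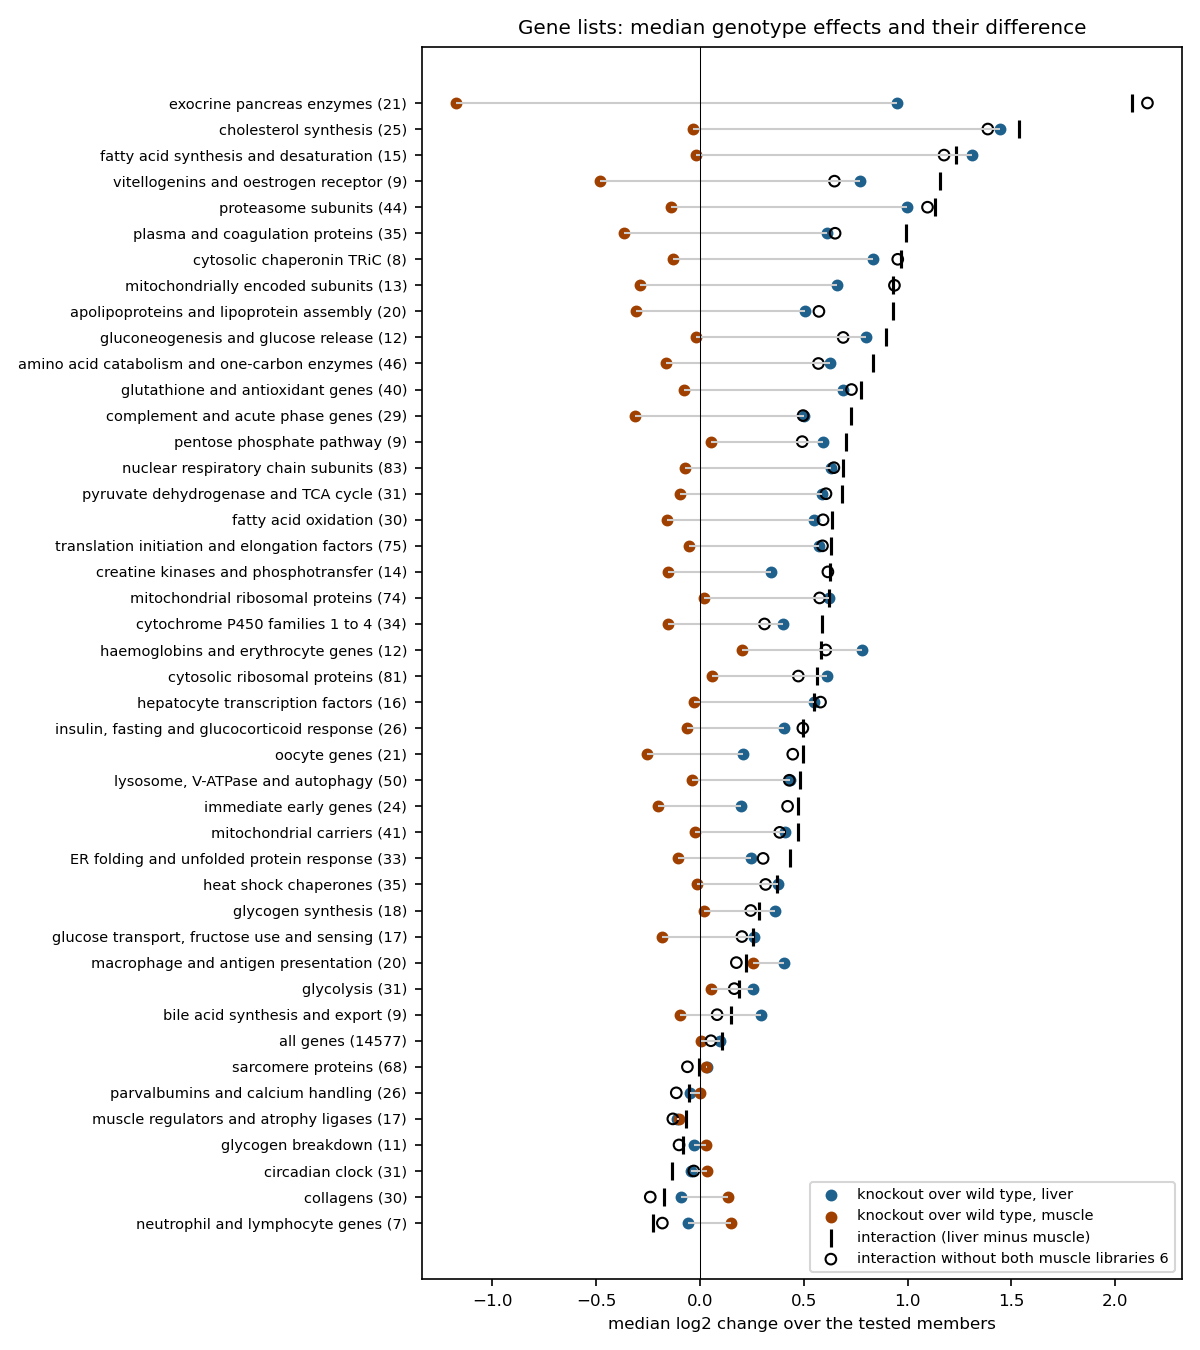
Median log2 change over the tested members of the gene lists (number in brackets): knockout over wild type in liver (blue) and muscle (brown), their difference (black bar) and the difference without both muscle libraries numbered 6 (open circle). Intestine and adipocyte genes, with few tested members, are not drawn. The all-genes median lies at 0.11, proteasome at 1.13 and exocrine pancreas enzymes at 2.08, and the open circle lies well away from the bar in vitellogenins, apolipoproteins and plasma proteins.

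In glucose metabolism the families split. Gluconeogenesis and glucose release had 11 of 12 members positive and a median of 0.90, from 0.80 in liver and -0.02 in muscle. That median was 0.69 without muscle 6 and 0.57 without wild-type muscle 6 alone. Glucose-6-phosphatase, which frees glucose for export, has near-identical copies whose reads may be split arbitrarily. Levels of g6pca.2 ran from 47.7 to 282 CPM (median 169.6) in wild-type and from 213 to 589 CPM (median 423) in knockout liver. It ran from 12.9 to 25.9 CPM (median 21.8) in wild-type and from 17.1 to 39.7 CPM (median 26.3) in knockout muscle, and each of the 8 knockout livers exceeded the wild-type median. Its interaction was 0.99 ± 0.38 (edgeR adjusted p = 0.183), with the muscle change also positive at 0.38. The other copy, g6pca.1, stood at 2.05 ± 0.99 (edgeR adjusted p = 0.28), with 10 counts in 1 wild-type and 0 knockout muscles. The mitochondrial phosphoenolpyruvate carboxykinase pck2 stood at 1.49 ± 0.73 (edgeR adjusted p = 0.283), or 0.93 without knockout liver 1. A glucose-6-phosphate transporter, slc37a4b, stood at -0.46 ± 0.24 (edgeR adjusted p = 0.296).

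Glycolysis had 20 of 31 members positive, none called, and a median of 0.19, near that of all genes. Its members differed among themselves, and the 3 named here were positive. In pklr, the pyruvate kinase of liver, wild-type livers ran from 110.1 to 452 CPM (median 276) and knockout livers from 434 to 4629.9 CPM (median 931). Wild-type muscles ran from 3.56 to 49.4 CPM (median 8.36), with the highest value in muscle 6, and knockout muscles from 4.14 to 21.1 CPM (median 8.91). Every knockout liver (8 of 8) exceeded the wild-type median, and its interaction was 2.79 ± 0.72 (edgeR adjusted p = 0.0872), or 2.25 without muscle 6. The enzymes gapdh and pgk1, which both tissues use, stood at 1.03 ± 0.31 (edgeR adjusted p = 0.112) and 0.82 ± 0.32 (edgeR adjusted p = 0.189).

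Genes of glycogen synthesis, gys2 included, showed no common direction, with 10 of 18 positive, none called and a median of 0.28, or 0.11 without knockout liver 1. The glycogenin genes, whose proteins prime the chain, went apart: gyg1a stood at 0.56 ± 0.26 (edgeR adjusted p = 0.247) and gyg1b, with few liver reads, at -1.19 ± 0.50 (edgeR adjusted p = 0.218). A phosphatase subunit that targets glycogen, ppp1r3aa, stood at 1.59 ± 0.56 (edgeR adjusted p = 0.153), with 10 counts in 0 wild-type and 3 knockout livers. Glycogen breakdown had 5 of 11 positive and a median of -0.08, whose sign changed with limma-voom, with thinning and when single libraries were left out (-0.29 to 0.22). The liver phosphorylase pygl stood at 1.18 ± 0.54 (edgeR adjusted p = 0.258), or 0.82 without muscle 6 and 0.59 without wild-type muscle 6 alone. The kinase subunit phka2 stood at -0.69 ± 0.26 (edgeR adjusted p = 0.184). The debranching copies had opposite signs, agla at 0.95 ± 0.40 (edgeR adjusted p = 0.224) and aglb at -0.67 ± 0.30 (edgeR adjusted p = 0.245).

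The pentose phosphate pathway, which makes NADPH and ribose, had 7 of 9 members positive, 3 of them at an unadjusted p under 0.05, and a median of 0.70. Without muscle 6 the pathway had 4 positive members at an unadjusted p under 0.05 and a median of 0.49. Knockout livers varied widely in its enzymes: the transketolase tktb ran from 55.2 to 1435 CPM (median 182) in knockout against 29.9 to 159 CPM (median 77.2) in wild-type liver. In muscle tktb ran from 11.5 to 35.4 CPM (median 17) in wild type and from 11.6 to 22 CPM (median 21.5) in knockout. The groups overlapped in both tissues, and 6 of 8 knockout livers exceeded the wild-type median. Interactions were 1.98 ± 0.71 for tktb (edgeR adjusted p = 0.169), 2.48 ± 0.98 for pgd, the phosphogluconate dehydrogenase (edgeR adjusted p = 0.205), and 0.70 ± 0.35 for the isomerase rpia (edgeR adjusted p = 0.284). With library totals that of rpia was -0.07, and without muscle 6 it was 0.49. Knockout liver 1 held the highest value of tktb and pgd, and without it the interactions were 1.24 and 1.39.

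Among genes of glucose transport, fructose use and sensing 10 of 17 were positive, with a median of 0.26, or 0.13 without wild-type liver 4. The triokinase tkfc of fructose use stood at 1.59 ± 0.41 (edgeR adjusted p = 0.0741), the liver glucose transporter slc2a2 at 1.09 ± 0.42 (edgeR adjusted p = 0.186), mlx, the partner of the carbohydrate-response factor, at 1.04 ± 0.42 (edgeR adjusted p = 0.209) and the transporter slc2a11a at -0.88 ± 0.43 (edgeR adjusted p = 0.282). Genes of the insulin, fasting and glucocorticoid response had 21 of 26 positive and a median of 0.50, or 0.88 without knockout muscle 1. The glucocorticoid target tsc22d3 stood at 1.46 ± 0.41 (edgeR adjusted p = 0.103) and igfbp1a, a binding protein of insulin-like growth factors that rises in fasting, at 2.05 ± 0.70 (edgeR adjusted p = 0.156).

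Lipid synthesis had some of the highest medians. Its shares with a positive interaction at an unadjusted p under 0.05 lay above the 11.9% of all genes. They were 20% for cholesterol synthesis and 33.3% for fatty acid synthesis and desaturation. Cholesterol synthesis had 25 of 25 members positive, 5 at an unadjusted p under 0.05, none called, and a median of 1.54, from 1.45 in liver and -0.03 in muscle. Without muscle 6 it had 3 of 25 at such a p, against 1363 of all 14266 genes, and a median of 1.39. Within groups the mean of this list varied between libraries with an SD of 1.11 on the log2 scale, so its members need not be separate results. Its reductase dhcr7 stood at 0.85 ± 0.28 (edgeR adjusted p = 0.128) and the mevalonate kinase mvk at 2.24 ± 0.96 (edgeR adjusted p = 0.23). Fatty acid synthesis and desaturation had 11 of 15 positive, 5 at an unadjusted p under 0.05, and a median of 1.23. In the malic enzyme me1, a source of NADPH, 1 library stood far above the rest: knockout livers ran from 0.745 to 335 CPM (median 3.21), with the highest in knockout liver 1, against 0.348 to 1.41 CPM (median 0.717) in wild type. Its muscles ran from 0.907 to 15.6 CPM (median 2.88) in wild type and from 1.51 to 9.02 CPM (median 3.66) in knockout, and its interaction was 5.98 ± 1.66 (edgeR adjusted p = 0.108), or 2.44 without knockout liver 1. The carboxylase acaca, which commits carbon to fatty acids, stood at 2.67 ± 0.91 (edgeR adjusted p = 0.152), and at 1.54 without knockout liver 1, with knockout livers from 16.8 to 1146 CPM (median 79.5). The median of this family was 0.46 without that library.

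Families of secreted liver proteins had positive medians that depended on muscle 6. Vitellogenins, the yolk precursors, with the oestrogen receptor had 9 of 9 members positive and a median of 1.16, which was 0.65 without muscle 6. Plasma and coagulation proteins had 33 of 35 positive and a median of 0.99, or 0.65 without muscle 6. Apolipoproteins had 19 of 20 positive and 0.93, or 0.57, and complement and acute phase genes 26 of 29 positive and 0.73, or 0.50. With a positive interaction at an unadjusted p under 0.05 were 1, 8, 2 and 7 members of these families, in the order given. Without muscle 6 these counts were 3, 12, 5 and 5, so the medians fell there but the counts rose in all but the last family. Of all 14266 genes tested without muscle 6, 1363 had such a p with a positive interaction. Without wild-type muscle 6 alone the medians were lower still, 0.35, 0.26, 0.05 and 0.36 in the same order. That fit keeps knockout muscle 6, with its liver-private share of 3.55%, so the genotypes are not treated alike in it. The muscle medians of these families were -0.48, -0.36, -0.31 and -0.31 with all libraries and -0.07, -0.19, -0.09 and -0.16 without muscle 6, in the same order. The liver-private share was 6.84% in wild-type muscle 6 and 3.55% in knockout muscle 6, and vitellogenins took 5.27% and 2.74% of their counts. Liver-private genes were chosen for a high liver level, so that share and these families can hold the same genes. The part of carry-over in these families was not tested.

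The yolk precursor vtg1 ran from 76976 to 194665 CPM (median 130321) in wild-type liver and from 46598 to 537203 CPM (median 341798) in knockout liver. Its interaction was 1.76 ± 0.72 (edgeR adjusted p = 0.214) with all libraries, 1.27 without muscle 6, 0.74 without wild-type muscle 6 alone and -0.06 under cyclic loess scaling. That of vtg2 was 1.37 ± 0.67 (edgeR adjusted p = 0.283) and 0.93 without muscle 6, or 0.50 without wild-type muscle 6 alone. The antiplasmin gene serpinf2b stood at 1.64 ± 0.46 (edgeR adjusted p = 0.103) and at 1.21 without muscle 6 (0.95 without wild-type muscle 6 alone), the retinol carrier rbp4 at 1.35 ± 0.48 (edgeR adjusted p = 0.166), the complement component c3a.6 at 1.43 ± 0.48 (edgeR adjusted p = 0.143) and lect2l, a secreted chemotactic protein, at 3.66 ± 1.29 (edgeR adjusted p = 0.165). Apolipoprotein B, apobb.2, stood at 1.07 ± 0.49 (edgeR adjusted p = 0.253), or 0.87 without muscle 6 and 0.64 without wild-type muscle 6 alone. The pattern that gathered apolipoproteins also took in apooa, a subunit of the mitochondrial MICOS complex, at 1.03 ± 0.40 (edgeR adjusted p = 0.189).

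Enzymes of amino acid breakdown and one-carbon metabolism had 40 of 46 members positive and a median of 0.84, or 0.57 without muscle 6 and 0.46 without wild-type muscle 6 alone. The glutamate dehydrogenase glud1a stood at 1.11 ± 0.31 (edgeR adjusted p = 0.0997), with all 8 knockout livers above and all 8 knockout muscles below the wild-type median, and bckdhb, of branched-chain amino acid breakdown, at 1.03 ± 0.31 (edgeR adjusted p = 0.112). Cytochromes P450 of families 1 to 4 had 28 of 34 positive and a median of 0.59, or 0.31 without muscle 6 and 0.15 without wild-type muscle 6 alone. Of these cyp2p7 stood at 2.53 ± 0.75 (edgeR adjusted p = 0.111), with 10 counts in 5 wild-type and 0 knockout muscles. The interaction of cyp2ad3 was 1.21 ± 0.43 (edgeR adjusted p = 0.157), or 0.91 without muscle 6 and 0.80 without wild-type muscle 6 alone. Genes of bile acids had 7 of 9 positive at a median of 0.15 (0.08 without muscle 6, -0.17 without wild-type muscle 6 alone), and hepatocyte transcription factors 15 of 16 at 0.55. At an unadjusted p under 0.05 these were 0 and 2 members.

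Families of the contractile apparatus lay at or near 0. Sarcomere proteins had 33 of 68 members positive and a median of 0.00, with troponin tnni2a.4 at 0.94 ± 0.32 (edgeR adjusted p = 0.143) and the actin acta1b at -0.95 ± 0.42 (edgeR adjusted p = 0.232). Parvalbumins and calcium handling genes had 11 of 26 positive and a median of -0.05, with stac3, needed for excitation-contraction coupling, at 0.85 ± 0.34 (edgeR adjusted p = 0.197) and the calcium channel cacna1sa at -1.72 ± 0.72 (edgeR adjusted p = 0.214). Creatine kinases and phosphotransfer genes had 12 of 14 positive and a median of 0.62. The muscle creatine kinase ckma ran from 15173 to 35402 CPM (median 27953) in wild-type and from 14856 to 25522 CPM (median 18265) in knockout muscle, with all 8 knockout muscles below the wild-type median. Its interaction of 0.68 ± 0.22 (edgeR adjusted p = 0.13) was -0.13 with library totals and -0.26 with cyclic loess, and that of the mitochondrial form ckmt2a was 0.84 ± 0.27 (edgeR adjusted p = 0.128). Regulators of muscle and its atrophy had 7 of 17 positive at -0.07, and collagens 10 of 30 at -0.17, with col4a6 at -0.89 ± 0.30 (edgeR adjusted p = 0.137) and col6a3 at 1.32 ± 0.46 (edgeR adjusted p = 0.146).

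Markers of other cells that a dissected piece could hold were described in the same way. No member of these lists was called, and the list medians did not share a sign. Exocrine pancreas enzymes had 21 of 21 members positive, 4 at an unadjusted p under 0.05, none called, and the highest median of the lists, 2.08, from 0.95 in liver and -1.17 in muscle. The 12 markers of exocrine pancreas summed to 33.1 to 2434 CPM in wild-type and 144 to 4287 CPM in knockout livers, and to 23.3 to 155 CPM in wild-type and 17.7 to 79.1 CPM in knockout muscles. None of these markers was at 0 throughout a group. The carboxypeptidase cpa5 stood at 3.64 ± 1.14 (edgeR adjusted p = 0.128) and the amylase amy2a at 2.90 ± 1.08 (edgeR adjusted p = 0.183). Of the 8 knockout muscles 1 held 10 counts of each, so the muscle side of both rests on few reads. Pancreatic tissue can lie close to the liver in zebrafish, and its part in the genes called was not tested.

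Erythrocyte genes had 11 of 12 members positive, 1 at an unadjusted p under 0.05, and a median of 0.58. Of these hemgn stood at 1.17 ± 0.44 (edgeR adjusted p = 0.183), or 0.89 without muscle 6, and rhag at 0.84 ± 0.49 (edgeR adjusted p = 0.356), or 1.35 without wild-type liver 7. Their 6 markers summed to 184 to 1376 CPM in wild-type and 538 to 1675 CPM in knockout livers, and to 418 to 1120 and 447 to 1924 CPM in the muscles. Macrophage and antigen presentation genes had 12 of 20 positive and a median of 0.22, with the complement subunit c1qc at 1.18 ± 0.40 (edgeR adjusted p = 0.138) and mhc2b at -0.78 ± 0.34 (edgeR adjusted p = 0.234). Their 7 markers summed to 79.4 to 226 CPM in wild-type and 139 to 381 CPM in knockout livers, and to 163 to 396 and 164 to 864 CPM in the muscles. The groups overlapped in each of these sums, and the part of these cells in the called genes was not tested. Oocyte genes had 16 of 21 positive at a median of 0.49 (0.29 without wild-type muscle 2), neutrophil and lymphocyte genes 3 of 7 at -0.23, intestine genes 1 of 4 at -0.33 (-0.76 without knockout liver 1), immediate early genes 20 of 24 at 0.47 and circadian clock genes 13 of 31 at -0.13, the last between -0.26 and 0.09 when 1 library was left out. The 1 tested adipocyte gene stood at 0.14.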

How the data were processed

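Livers and muscles of wild-type and gys2 knockout zebrafish were sequenced as 32 libraries. The deposited table gives raw counts as whole numbers, 1 column for each library, not normalized. The submitters' processing notes name the build GRCz11 and, as tools, Salmon 1.10.2, BWA 0.7.17-r1188 and fastp 0.23.4. Their roles and order stay unstated. The sources used here do not give whether the counts are rounded estimates or how reads of near-identical copies were assigned. No molecular identifier is stated, so counting error does not cover amplification.

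Genes with at least 10 counts in 8 or more libraries were tested with edgeR 4.0.16 in R 4.3.3: TMM factors over all 32 libraries, 1 mean per group, a robust quasi-likelihood fit, and Benjamini-Hochberg adjustment over all genes tested, called under 0.05. Log2 changes are given ± SE. CPM use the library size after filtering, multiplied by the TMM factor. For gys2 and gys1 all pairs of 8-against-8 splits of genotype within each tissue were enumerated on log2(CPM + 0.5). Liver-private genes were those whose wild-type liver median, per library total, passed 100 CPM and 32 times the wild-type muscle median. Muscle-private genes met the converse rule with 16 times. The procedure was tested on simulated counts.

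The genes named are gys2, gys1, the called genes with a mean of at least 5 CPM in some group (the 15 with the smallest p in each direction), and the 2 members with the smallest interaction p of each family described, or 4 for glucose families. Called genes outside this rule are named as such. A few genes that the rule picks are not reported here. The members, the gene lists and the tests were chosen with earlier results of these data known. Alternatives were DESeq2 1.42.0, limma 3.58.1 (voom with quality weights, and cyclic loess), other scalings and filters, thinned counts, removal of abundant genes, replicate blocks, an adjusted p under 0.10 and libraries left out. Removal of mitochondrial features, 10 thinning draws and separate fits of the tissues were chosen after seeing the data.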

Additional observations from a re-analysis of the deposited data

Results flagged for a closer look

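The genotype effect differed between liver and muscle, by a test of that difference, for 30 genes. For gys2 the difference of differences was -3.13, with muscle levels near the floor, and its edgeR interaction did not pass (edgeR adjusted p = 0.0667). Of the genes named, the log2 interactions were 1.79 for smim8, 2.15 for ppdpfb, 1.51 for tspo, 1.46 for mt-nd3, 1.44 for pdha1a, 1.48 for TMEM19, 1.38 for PSMA2, 2.08 for psmd4b, 1.25 for sumo2b and 1.35 for rtf1. They were 1.44 for a mitochondrial feature listed without a symbol, 1.54 for arl8, 1.33 for mt-nd6, 1.44 for rab1ba, 2.30 for cldn2 and 1.27 for eif3c, and -1.27 for galnt13, -2.04 for CU074330.1 and -1.22 for stat4.

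A library far from the other 7 of its group was found in 32 of the groups of values examined, where chance at about 1 in 20 would give 19.6. Both muscle libraries numbered 6 account for 12 of the 32. In wild-type muscle 6 they were pklr at 49.4 CPM, vtg1 at 23912 CPM, vtg2 at 3257 CPM and serpinf2b at 33.5 CPM, with 6.84% of counts on liver-private genes and 5.27% on vitellogenins. In knockout muscle 6 they were apobb.2 at 14.3 CPM, vtg1 at 12132 CPM, vtg2 at 1698 CPM and serpinf2b at 13.3 CPM, with 3.55% of counts on liver-private genes and 2.74% on vitellogenins.

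Among the called genes, tspo at 26.7 CPM and mt-nd6 at 1183 CPM were distant in wild-type liver 5, sumo2b at 11.8 CPM and the mitochondrial feature without a symbol at 7528 CPM in wild-type liver 4, and galnt13 at 9.83 CPM in wild-type liver 3. In knockout liver 1 the distant values were pgk1 at 235 CPM, pck2 at 632 CPM, me1 at 335 CPM and a vitellogenin share of 5.44%. In other livers they were phka2 at 18.6 CPM in knockout liver 6, slc2a11a at 0.556 CPM in knockout liver 8, psmb6 at 5.28 CPM in wild-type liver 7, lect2l at 174 CPM in wild-type liver 2, and a muscle-private share of 0.946% in wild-type liver 4. In other muscles they were pgk1 at 505 CPM and a muscle-private share of 38.2% in knockout muscle 7, tktb at 11.6 CPM in knockout muscle 3, tsc22d3 at 77.6 CPM in knockout muscle 1, mlx at 4.84 CPM in wild-type muscle 1 and mvk at 0 CPM in wild-type muscle 4.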

How the results depend on the processing

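The direction of the interaction changed in 5 of 93 named genes under any alternative: gys1 (0.0506 when thinned), gyg1a (-0.25), rpia (-0.0703) and ckma (-0.13) with library totals, and vtg1 (-0.0642) and ckma (-0.26) with cyclic loess. Set against 30, the genes called numbered 153 with DESeq2 (112 positive, 41 negative), 64 with limma-voom, 18 with DESeq2 size factors, 3342 with library totals (25 positive, 3317 negative), 15 with TMM within each tissue (12 and 3), 10 with cyclic loess, 107 without a filter, 2 when thinned, 6 without both muscle libraries numbered 6, 122 at an adjusted p under 0.10 and 3 without mitochondrial features. At least 50 counts gave 42, counts in both tissues 32 and removal of vitellogenins 29. The liver calls, 548, were 259 with DESeq2 size factors (208 higher, 51 lower), 4603 with library totals (50 and 4553), 293 with TMM within each tissue (222 and 71), 176 with cyclic loess (132 and 44), 16 when thinned, 199 without muscle 6, 1191 at an adjusted p under 0.10, 226 without mitochondrial features (163 and 63) and 7 with each tissue fitted alone. Muscle gave 0 calls in every alternative run. The common coefficient of biological variation was 0.396 in livers alone, 0.331 in muscles alone and 0.385 over all. With library totals the difference of differences of gys1 was -0.88 (exact permutation p = 0.00479). The cause of these shifts was not tested.

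Leaving out 1 library gave 2 to 68 interaction calls, 43 to 921 liver calls and 0 muscle calls. Liver calls moved by over 1.5 times in 21 of the 32 fits, also with a muscle library left out. They were 161 without knockout muscle 3, where the median liver change over all genes was 0.01 against 0.10 with all libraries. Without wild-type muscle 7 they were 575, at a median of 0.10. The interaction count moved by over 1.5 times in 24 of the 32 fits. It was 2 without wild-type muscle 8 or knockout muscle 5, 3 without knockout muscles 2, 3 or 4 or wild-type liver 4, 4 without wild-type muscles 2 or 7 or wild-type liver 7, 5 without knockout muscle 6, 6 without wild-type liver 8, 7 without wild-type muscle 3 or knockout livers 3 or 6, 8 without wild-type muscle 1, 10 without knockout liver 4, 11 without wild-type liver 1 and 19 without knockout liver 2. It was 51 without wild-type liver 2, 52 without knockout muscle 1, 60 without wild-type liver 3, 61 without knockout muscle 8, 63 without knockout liver 8 and 68 without wild-type liver 5. The difference of differences ran from -3.42 to -2.96 for gys2 and from -0.21 to -0.06 for gys1.

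Same-numbered libraries of different groups gave no sign of pairing. They deviated together with correlations from -0.144 to 0.159, with 1 of 16 over 0.1, and 3 libraries correlated best with their own number. Tissues of the same fish need not deviate together, so this cannot tell whether equal numbers mark the same fish. With the library number as a replicate block 24 genes were called, and with the number within genotype as the block 8. Wild-type livers were the shallowest group, and gys2 was counted 6 to 37 times in them, so that low genes rest on few counts.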
